A study of Mus musculus with 8 samples.

Results

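The imprinted growth genes described here were Mest, H19, Igf2, Peg3, Peg10, Plagl1, Dlk1, Meg3, Grb10 and Cdkn1c. These genes were chosen with earlier results of these data known. Every array probe whose RefSeq accession belongs to 1 of these 10 genes was taken, and none was left out for its level. The rule found 19 of 55681 probes on the array, in 28 spots, for 9 of the 10 genes and of 21154 genes that could be named on the array. H19 is not analysed here, because the rule matched no probe to it. RNA came from the epidermis of newborn (P0) back skin of C57BL/6 mice, peeled from the dermis after dispase and dissociated with trypsin. There were 4 EED cKO and 4 control biological replicates. In EED cKO mice, floxed Eed was deleted with Cre recombinase driven by the Krt14 promoter, which acts in embryonic epidermal stem cells. The alleles carried by the controls are not given in the labels. Each RNA was hybridised together with Universal Mouse Reference RNA on a 2-colour Agilent array. The sample was labelled with Cy3 on replicates 1 and 3 and with Cy5 on replicates 2 and 4 of both genotypes.

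Imprinted genes are expressed mainly from the allele of 1 parent. The alleles differ in DNA methylation at CG dinucleotides of imprinting control regions, and at some loci Polycomb complexes add silencing to the repressed allele. EED is a core subunit of Polycomb repressive complex 2 (PRC2), which methylates histone H3 at lysine 27. Many imprinted genes act on growth: those expressed from the paternal allele tend to promote it and those expressed from the maternal allele tend to restrain it. Of the members, Mest, Igf2, Peg3, Peg10, Plagl1 and Dlk1 are expressed from the paternal allele, and H19, Meg3, Grb10 and Cdkn1c are in most tissues expressed from the maternal allele. The arrays measured total RNA of a gene and not the allele it came from.

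The RefSeq promoter table (GRCm38.p6) held 14 entries for 7 of the 10 members. The 250 bases upstream of the start are shown for Mest, whose probes differed most between genotypes, and for Dlk1 and Meg3, which lie next to each other and were both higher in EED cKO epidermis. All 4 run 5′ to 3′ on the plus strand, and capitals mark the dinucleotide CG, which reads the same on both strands.
Mest, first start, chr6:30733256-30733505: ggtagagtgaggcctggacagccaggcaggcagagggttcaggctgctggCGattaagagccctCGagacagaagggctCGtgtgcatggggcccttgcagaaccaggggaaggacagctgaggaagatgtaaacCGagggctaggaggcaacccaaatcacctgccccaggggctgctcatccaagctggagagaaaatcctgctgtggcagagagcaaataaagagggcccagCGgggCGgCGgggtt
Mest, second start, chr6:30737800-30738049: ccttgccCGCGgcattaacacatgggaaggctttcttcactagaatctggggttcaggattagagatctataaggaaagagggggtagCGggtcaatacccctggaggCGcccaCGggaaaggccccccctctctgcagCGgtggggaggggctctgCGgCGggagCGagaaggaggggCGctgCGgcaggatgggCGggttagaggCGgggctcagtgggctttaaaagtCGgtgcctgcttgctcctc
Dlk1, chr12:109452573-109452822: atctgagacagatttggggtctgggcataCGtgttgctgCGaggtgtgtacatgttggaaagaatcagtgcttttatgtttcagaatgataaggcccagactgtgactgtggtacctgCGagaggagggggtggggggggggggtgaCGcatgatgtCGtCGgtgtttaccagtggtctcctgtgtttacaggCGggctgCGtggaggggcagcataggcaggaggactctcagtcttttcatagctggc
Meg3, chr12:109540746-109540995: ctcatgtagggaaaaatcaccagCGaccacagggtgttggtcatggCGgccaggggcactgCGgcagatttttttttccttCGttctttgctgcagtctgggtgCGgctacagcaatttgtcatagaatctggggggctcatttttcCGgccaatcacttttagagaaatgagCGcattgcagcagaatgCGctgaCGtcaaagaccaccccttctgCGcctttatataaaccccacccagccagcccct
The first Mest start had 7 CG dinucleotides upstream and the second had 14, where the median of 32851 promoter entries was 6.0. At least 14 were found upstream of 29.4% of all entries and at least 7 upstream of 46.3%. Dlk1 had 8 and Meg3 had 10, reached by 43.0% and 37.8% of entries. The Dlk1 stretch lies within the annotated gene, which begins at chr12:109452485, so it is upstream of an internal start only. The second Meg3 entry had 0. Among the members not shown, the 2 Grb10 starts had 40 and 8, the 4 Igf2 starts 22, 10, 6 and 1, Plagl1 had 19 and Peg3 had 8.

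The targeted gene fell in every EED cKO sample. The Eed probe averaged a log2 ratio of sample over reference of -1.80 in EED cKO and -0.35 in control epidermis, a log2 difference of -1.46 (limma, adjusted p = 1.91e-05). Whether this probe lies in the deleted part was not known. In the sample channel, spots well above background made up 53.3% to 65.5% of each EED cKO array and 51.5% to 65.4% of each control array. Markers of basal and suprabasal epidermis were well above background on all 8 arrays (9 of 9 and 8 of 8 genes with a probe). The mean log2 ratio of 12 dermal fibroblast markers ran from -2.58 to -2.42 in EED cKO and from -2.64 to -2.35 in control samples, with 2 called higher, Lum and Fbn1, and 1 lower, Postn. Of 7 tested skeletal muscle markers limma called 0 (1 at an unadjusted p below 0.05), and Myh3 and Ttn were well above background on no array. Markers called higher were 6 of 6 for Merkel cells (mean log2 ratio -0.95 to -0.82 against -1.67 to -1.53), 2 of 3 tested for endothelium (0.24 to 0.38 against 0.10 to 0.11), 3 of 4 for adipocytes (-0.25 to -0.04 against -0.64 to -0.47), 3 of 8 for immune cells (-0.53 to -0.21 against -0.85 to -0.31) and 1 of 5 for Schwann cells and neurons (-0.37 to -0.23 against -0.39 to -0.23). Of 7 melanocyte markers 1, Sox10, was called lower. Of 4 tested erythroid markers 0 were called by limma (1 higher at an unadjusted p below 0.05), with a median log2 difference of 1.03 and a mean log2 ratio of 0.84 to 1.69 against 0.36 to 1.55. The mean log2 ratios of all these cell types were taken over every gene with a probe, tested or not. Such genes numbered 8 for endothelium, 7 for adipocytes, 9 for immune cells, 8 for Schwann cells and neurons and 6 for erythroid cells. Of 8 suprabasal markers 0 were called (1 higher at an unadjusted p below 0.05). The endothelial genes Cdh5, Esam, Tek and Tie1 and the adipocyte gene Adipoq were well above background on no array. Of 9 basal epidermis markers 6 were called lower. When all genes were fitted with 1 probe each, 11.8% were called higher and 9.93% lower. Of the 6 Merkel markers, 3 were well above background on all 8 arrays. Each EED cKO array had 6 of them well above background, and control arrays had 3 to 5. Some markers may thus have been tested through their EED cKO arrays only, so the counts called higher cannot stand as support. In such bulk samples, fewer cells of a type and less RNA per cell cannot be told apart, and the part of cell composition in the results below was not tested. Y-linked genes were high on control replicates 2 and 3 (mean log2 ratio 1.19 and 1.02). On the other 6 arrays they were at -1.51 to -1.31. Xist was lowest on the same 2 control arrays (-2.49 and -1.85, against -1.07 to -0.46). By these genes, sex was not balanced between the genotypes. Member differences that lost their call or moved by over 1.5 times without these 2 samples are therefore given both ways.

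Deletion of Eed was compared with control for each probe. A probe was tested when, in either genotype, the sample gave spots well above background on 3 or more of the 4 arrays, and called when the limma adjusted p over all 30722 tested probes was below 0.05. This left 14 member probes of 8 genes. Probes of 5 genes were called higher in EED cKO epidermis: Mest, Igf2, Dlk1, Meg3 and Cdkn1c. Those called were 8 of the 14 probes (57.1%), against 10.9% of all tested probes called higher. Called lower were 0 member probes, against 9.05% of all tested probes, and 0 also had an unadjusted p below 0.05 with a negative difference, by limma and by the unpaired test named in the study's methods. Both genotypes' 4 values did not overlap on 8 member probes, against 16.2% of all tested probes. A difference of at least 2-fold was reached by 2 member probes, both of Mest, against 1.05% of all. The median log2 difference was 0.30 over the member probes and 0.02 over all tested probes. Of the 14 probes, 2 Mest probes passed the filter through EED cKO arrays only, so these counts cannot stand as support. Over the 12 probes well above background on all 8 arrays, 6 were called higher and 0 lower. Of all 25918 probes that passed that filter, 11.4% were called higher and 10.7% lower. The count over these 12 probes cannot stand as support either, since the members were chosen with earlier results of these data known. Median centring of each array in place of loess left 4 member probes called higher and turned the split over all probes from 3341 higher and 2781 lower to 1213 higher and 1840 lower.

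**Figure D1:**
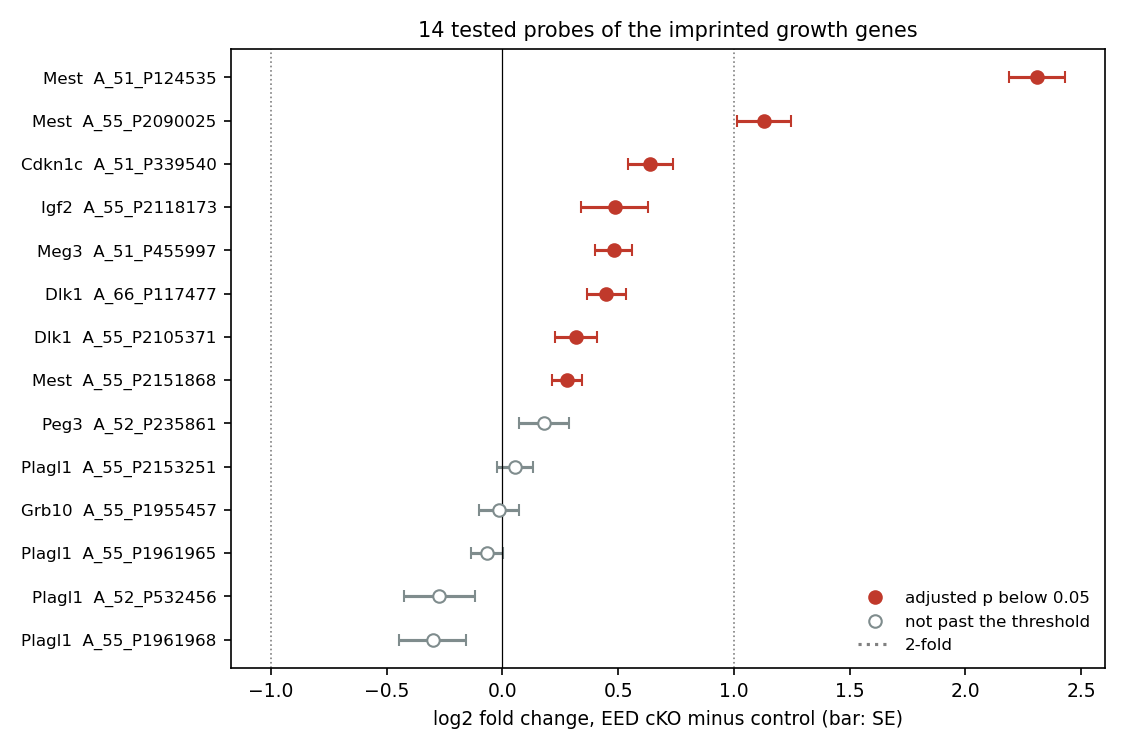
Log2 fold change (EED cKO minus control, horizontal axis) of the 14 tested probes of the imprinted growth genes, with its standard error as a bar; filled points passed an adjusted p of 0.05 and dotted lines mark 2-fold. The 8 filled points all lie above 0, from 0.28 to 2.31, and the 2 Mest probes at the top lie beyond 2-fold.

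Mest had the largest difference of the members. It encodes a protein with an alpha/beta hydrolase fold that is expressed widely in embryonic mesoderm. On probe A_51_P124535, printed in 10 spots, the log2 ratio was 2.19, 1.94, 2.04 and 1.32 in EED cKO replicates 1 to 4 and -0.19, -0.78, -0.17 and -0.60 in control replicates 1 to 4. Every EED cKO sample was above the reference RNA and every control sample below it. The signal after subtraction of local background averaged 263 in EED cKO and 28.2 in control samples, and the spots were well above background on all 8 arrays. The log2 difference was 2.31 ± 0.12 (SE), or 4.96-fold (adjusted p = 6.84e-06), and came to 2.30 on the Cy3 arrays and 2.32 on the Cy5 arrays.

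The other Mest probes showed smaller differences. Both carry the same RefSeq transcript record, which differs from that of A_51_P124535. On A_55_P2090025 the log2 ratio was 0.95, 1.15, 0.63 and 0.63 in EED cKO and -0.36, -0.27, -0.33 and -0.19 in control epidermis. The groups did not overlap, and the log2 difference was 1.13 ± 0.12 (SE), or 2.19-fold (adjusted p = 0.000396), with well above background spots on 4 EED cKO and 2 control arrays. On A_55_P2151868 the values were 0.31, 0.22, 0.17 and 0.20 against -0.07, -0.02, -0.03 and -0.09. These lie close together, and the log2 difference was 0.28 ± 0.07 (SE, adjusted p = 0.0164). This probe was well above background on 3 EED cKO and no control arrays, so control gives a bound only, and Mest was at least 1.16-fold higher there. Such a bound sets the mean of the EED cKO arrays against the higher, per control array, of the probe's own level and the lowest level of any probe well above background, on the sample channel after loess and Aquantile normalization. The call on A_55_P2151868 was lost without control replicates 2 and 3 (log2 difference 0.31, adjusted p = 0.0622) and with median centring (adjusted p = 0.0833).

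Within each array, the log2 ratio of A_51_P124535 minus that of A_55_P2090025 averaged 1.03 in the EED cKO arrays (SD 0.34, n = 4) and -0.15 in the control arrays (SD 0.36, n = 4), so the probes' differences were 1.18 apart (exact permutation test, two-sided, p = 0.0286, adjusted p = 0.0857 over 6 pairs). The third probe is left out of this comparison, since control gives a bound only there. With 4 against 4 samples 0.0286 is the smallest p this test can give, so no pair could pass the threshold after adjustment unless several did. With no background correction the differences of the first 2 probes were 1.20 apart and with median centring 1.14. With the scanner software's log ratio, which has its own background subtraction and dye normalization and lacks the offset of 50 that normexp adds to each signal, the log2 differences were 3.75 on A_51_P124535 and 3.94 on A_55_P2090025, -0.19 apart (exact permutation p = 0.8). Which of these steps moved them was not tested. Mean control signals on these probes were below that offset. The size of the Mest difference is therefore known less well than its direction, which on A_51_P124535 was the same in every alternative. The other 2 probes also had this direction in every alternative that tested them. They passed the filter through EED cKO arrays only, so their direction cannot stand as support.

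**Figure D2:**
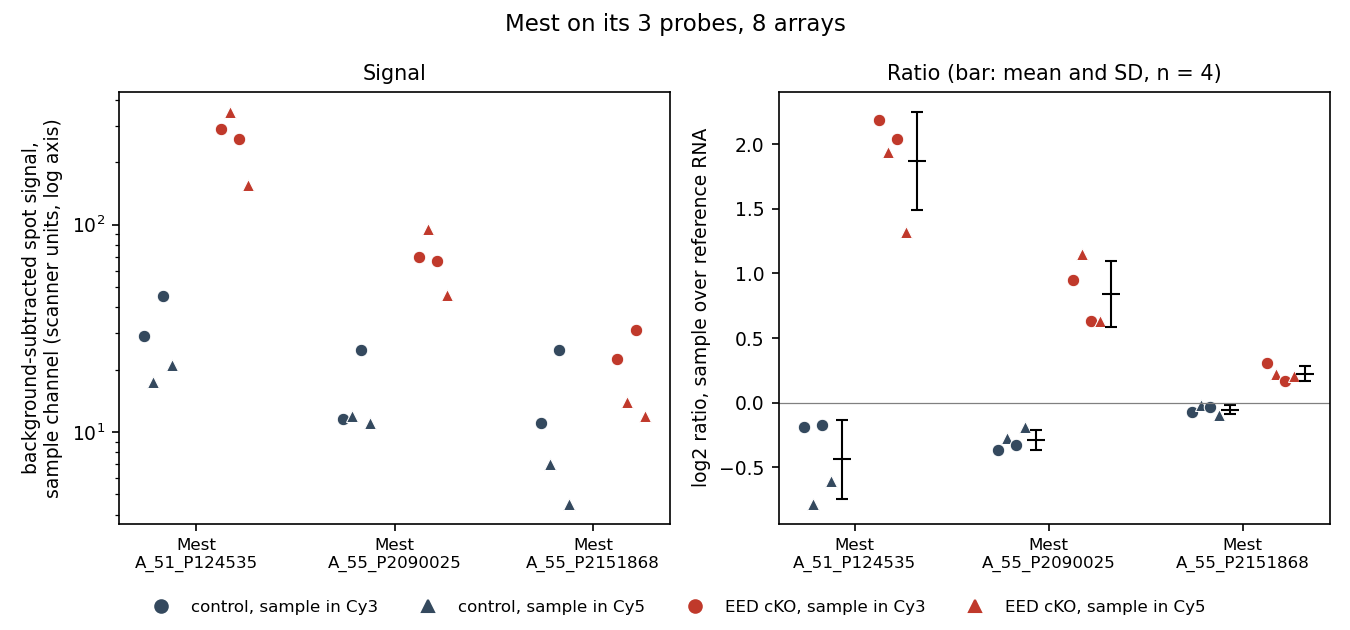
Mest on its 3 probes, as background-subtracted signal of the sample channel (left, scanner units, log axis) and as log2 ratio of sample over reference RNA (right, with mean and SD, n = 4); each point is 1 array, coloured by genotype and shaped by the dye of the sample. On the first probe the 4 EED cKO signals lie between 156 and 351 and the 4 control signals between 17.4 and 45.5; the ratio groups are apart on all 3 probes, by less from left to right.

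Igf2, the insulin-like growth factor expressed in fetal tissues, was higher by a margin close to the threshold. Its probe A_55_P2118173 read 1.99, 2.56, 1.99 and 2.18 in EED cKO and 1.88, 1.78, 1.72 and 1.40 in control epidermis. The groups did not overlap, but EED cKO replicates 1 and 3 lay close to control replicate 1. The log2 difference was 0.48 ± 0.14 (SE, adjusted p = 0.0417). On the Cy3 arrays it was 0.19 and on the Cy5 arrays 0.78. The call was lost in 8 of 12 alternatives (adjusted p 0.0246 to 0.168) and in 7 of 8 fits that left out 1 array (0.0268 to 0.0922), while the difference was positive in all of them. Without control replicates 2 and 3 it was 0.54 (adjusted p = 0.106).

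Dlk1 and Meg3 lie next to each other in an imprinted domain, with Dlk1 expressed from the paternal and Meg3 from the maternal allele. Dlk1 encodes a transmembrane protein of the Delta-like family that restrains adipocyte differentiation. Probe A_66_P117477 read -4.52, -4.47, -4.65 and -4.45 in EED cKO and -4.89, -5.00, -5.18 and -4.82 in control epidermis. Both genotypes were far below the reference RNA, and the EED cKO values were all the higher ones. The log2 difference was 0.45 ± 0.08 (SE, adjusted p = 0.00664), with 0.45 on the Cy3 and 0.45 on the Cy5 arrays. The second Dlk1 probe, A_55_P2105371, read -2.10, -2.11, -2.15 and -1.97 against -2.21, -2.37, -2.60 and -2.41. Its difference was 0.32 ± 0.09 (SE, adjusted p = 0.0351), and both probes' differences were 0.13 apart (exact permutation p = 0.143). Without control replicates 2 and 3 neither Dlk1 probe was called (log2 differences 0.33 and 0.23, adjusted p = 0.0510 and 0.193), and median centring also ended both calls (adjusted p = 0.128 and 0.348). The second probe was not called in 7 of 8 fits that left out 1 array (adjusted p 0.00837 to 0.106).

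Meg3, a long noncoding RNA, was measured on A_51_P455997 at 0.09, -0.02, 0.11 and 0.18 in EED cKO and -0.23, -0.55, -0.41 and -0.38 in control epidermis. The groups were apart, and the log2 difference was 0.48 ± 0.08 (SE, adjusted p = 0.00406), with 0.42 on Cy3 and 0.54 on Cy5 arrays. The call held in all 12 alternatives and all 8 fits that left out 1 array, and with the scanner software's log ratio the difference was 1.28. The signal was low, from 34.0 to 62.0 in EED cKO and 21.0 to 34.0 in control samples. The other 2 Meg3 probes, A_55_P2033407 and A_52_P196568, were each well above background on 1 array and were not tested. A_55_P2033407 averaged -0.27 in EED cKO and -0.42 in control samples, and A_52_P196568 averaged -0.03 and 0.05.

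Cdkn1c encodes p57, an inhibitor of cyclin-dependent kinases, and was second to Mest in the size of its difference on this scale (with the scanner software's log ratio Meg3, at 1.28, was above Cdkn1c, at 0.63). Its probe A_51_P339540 read 3.00, 2.72, 2.80 and 2.81 in EED cKO and 2.38, 2.02, 2.06 and 2.30 in control epidermis. All 8 samples were well above the reference RNA and the genotypes did not overlap. The log2 difference was 0.64 ± 0.10 (SE), or 1.56-fold (adjusted p = 0.0027), with 0.68 on Cy3 and 0.60 on Cy5 arrays. It was called in all 12 alternatives (0.47 to 0.67) and in all 8 fits that left out 1 array (0.57 to 0.70). Without control replicates 2 and 3 it was 0.49 (adjusted p = 0.0163). The related inhibitor genes Cdkn1a and Cdkn1b were not called on their brightest tested probes (-0.13 and -0.28, adjusted p = 0.566 and 0.151), while a second Cdkn1a probe was higher by 0.34 (adjusted p = 0.0182). That second probe was well above background on 4 EED cKO and 2 control arrays, so it passed the filter through EED cKO arrays only.

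**Figure D3:**
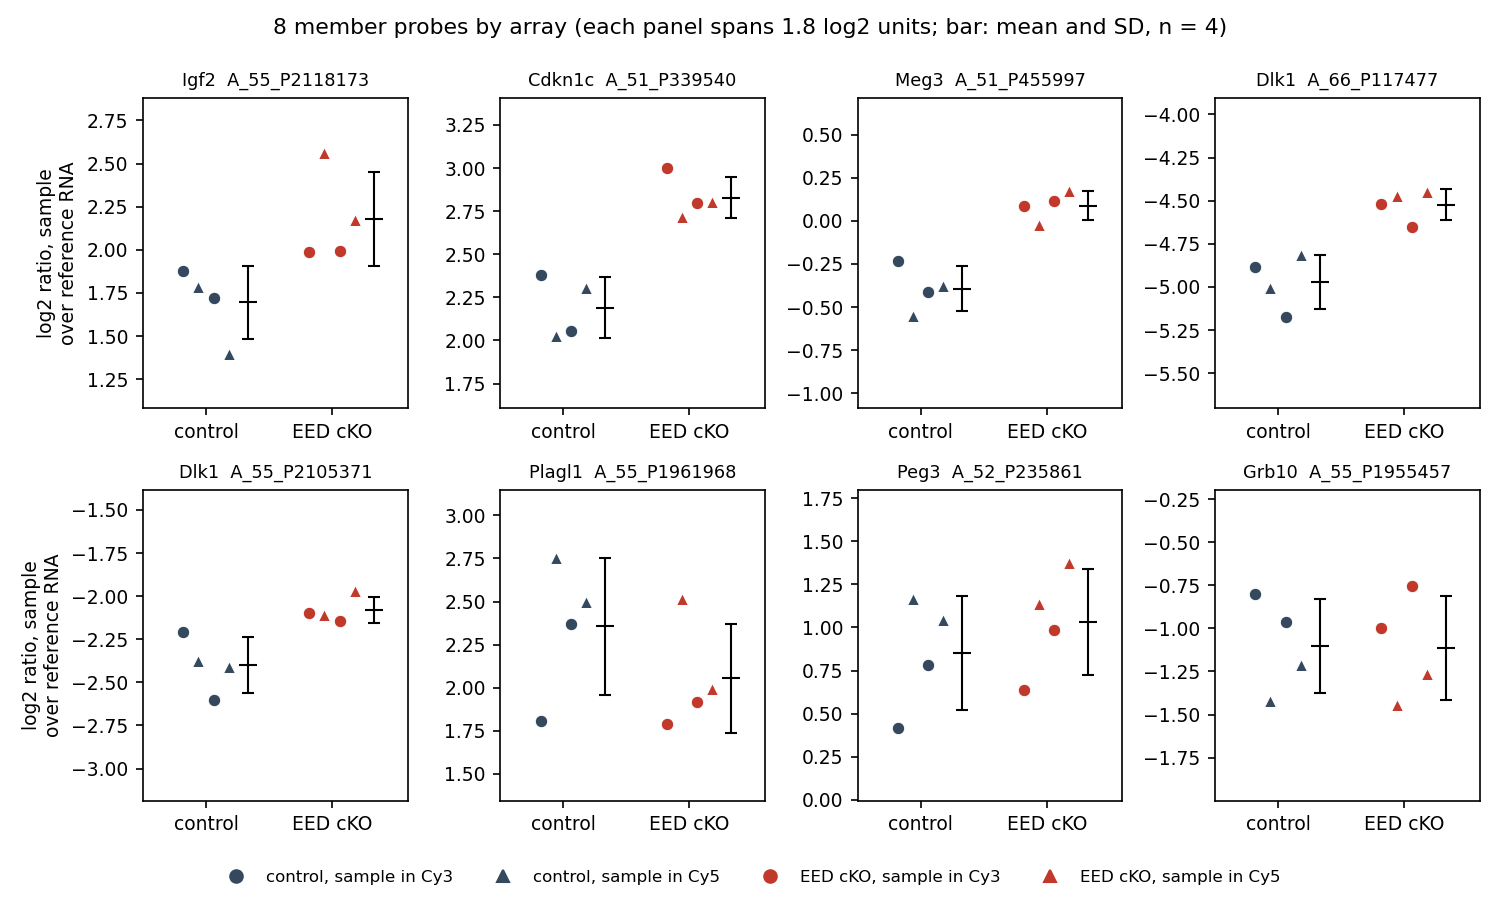
Log2 ratio of sample over reference RNA (vertical axis) of 8 member probes on each of 8 arrays, coloured by genotype and shaped by the dye of the sample, with mean and SD (n = 4); each panel spans the same 1.8 log2 units. The genotypes are apart for Igf2, Cdkn1c, Meg3 and both Dlk1 probes and overlap for Plagl1, Peg3 and Grb10.

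Plagl1, a zinc finger transcription factor, did not share the rise. The probe A_55_P1961968 read 1.79, 2.51, 1.92 and 1.99 in EED cKO and 1.81, 2.75, 2.37 and 2.50 in control epidermis. The genotypes overlapped, control replicate 1 being as low as the lowest EED cKO sample. The log2 difference was -0.30 ± 0.15 (SE, adjusted p = 0.175), and A_52_P532456 gave -0.27 (adjusted p = 0.249). With the replicate number as a block in place of the dye, A_55_P1961968 was called lower (adjusted p = 0.0464), and no other member's call changed. Without control replicates 2 and 3 these 2 probes gave -0.10 and -0.05 (adjusted p = 0.737 and 0.884). The remaining Plagl1 probes gave 0.06 (A_55_P2153251, adjusted p = 0.663) and -0.07 (A_55_P1961965, adjusted p = 0.544), and the 3 pairs of Plagl1 probes differed by -0.36 to -0.03 (exact permutation p 0.171 to 0.343).

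Peg3, a zinc finger protein gene that acts on maternal behaviour and growth, read 0.64, 1.13, 0.99 and 1.37 in EED cKO and 0.42, 1.17, 0.78 and 1.04 in control epidermis on A_52_P235861. The groups overlapped, and the log2 difference was 0.18 ± 0.11 (SE, adjusted p = 0.283), or 0.30 (adjusted p = 0.169) without control replicates 2 and 3. Its second probe, A_55_P2163319, was well above background on 2 arrays of each genotype and was not tested, with means of 0.25 and 0.20. Grb10, an adaptor that binds the insulin and IGF receptors and restrains growth, read -0.999, -1.44, -0.755 and -1.27 against -0.80, -1.42, -0.96 and -1.21. These values interleave, with a log2 difference of -0.01 ± 0.09 (SE, adjusted p = 0.929), and the sign of this difference changed in 4 of 8 fits that left out 1 array. Without control replicates 2 and 3 the Grb10 difference was -0.11 (adjusted p = 0.582). Peg10, which derives from a retrotransposon and is needed in the placenta, had 2 probes that were not tested. A_55_P2029763 was well above background on 1 EED cKO and 2 control arrays and A_52_P377723 on none, so a difference in Peg10 was not detectable here.

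**Figure D4:**
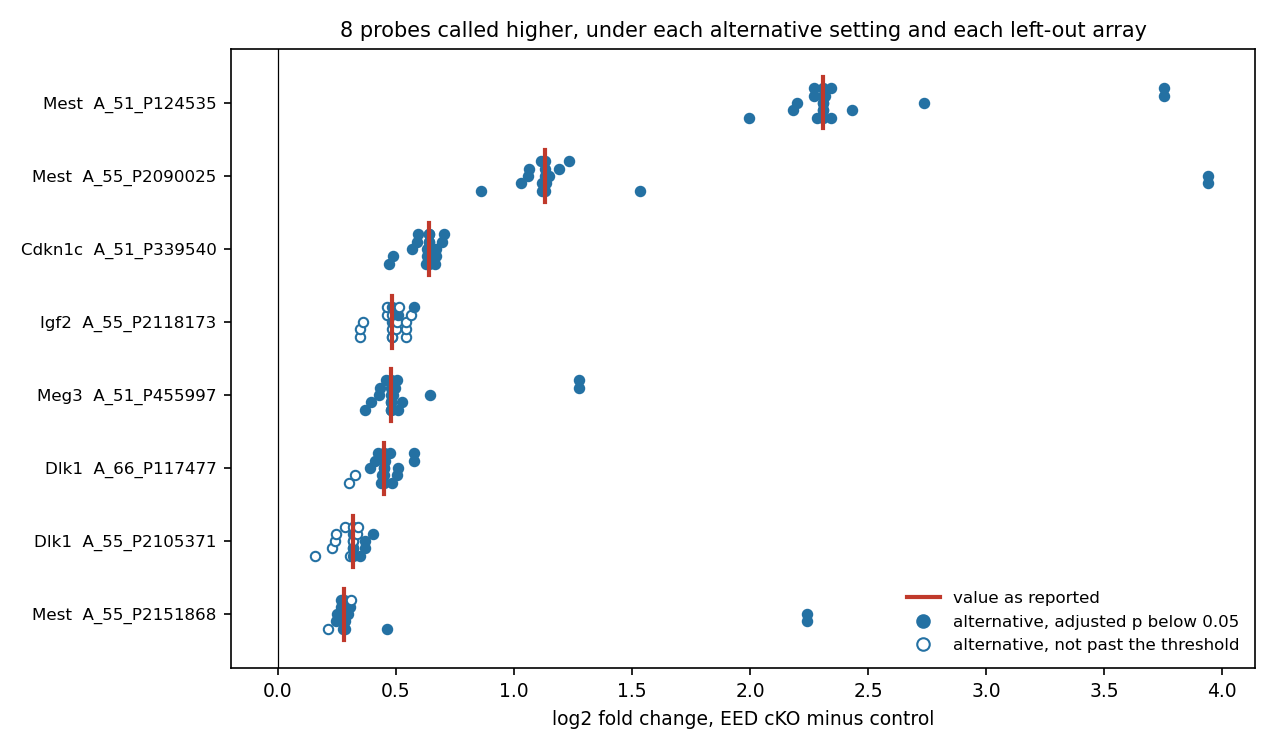
Log2 fold change (EED cKO minus control) of the 8 called member probes as reported (vertical bars) and under each alternative setting and each left-out array (points, filled where the adjusted p was below 0.05). The points of Cdkn1c, of Meg3 and of 2 Mest probes are all filled, most of those of Igf2 and of the second Dlk1 probe are open, and the points far to the right are the scanner software's log ratio and the deposited table.

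The genes beside the 5 called members were examined, as the nearest 2 genes with a probe on each side (chosen after their values were seen). Of the 16 that are not themselves members, 11 were tested, 1 was called higher and 0 lower. Of all tested probes 10.9% were called higher and 9.05% lower, so this count sets the neighbours apart from other genes in neither direction. The 1 was Igf2os, an RNA transcribed from the strand opposite Igf2. Its probe A_66_P116635 read 2.91, 3.83, 3.32 and 3.65 in EED cKO and 1.66, 2.54, 2.69 and 2.62 in control epidermis, a difference of 1.05 ± 0.19 (SE, adjusted p = 0.00605). Copg2 and Cep41, beside Mest, gave -0.24 each (adjusted p = 0.0670 and 0.0661). Phlda2, Slc22a18 and Kcnq1ot1, beside Cdkn1c, gave -0.08, -0.33 and 0.12 (adjusted p = 0.519, 0.0533 and 0.338). Begain, beside Dlk1, gave 0.28 (adjusted p = 0.0509).

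Other imprinted genes were read from lists by the expressed allele, with 1 brightest tested probe a gene. The lists were written from general knowledge, and the allele expressed in this epidermis was not measured. When all genes were fitted with 1 probe each, 11.8% of 23234 were called higher and 9.93% lower. Of 18 tested paternally expressed genes 5 were called higher and 1 lower, and their median log2 difference was 0.09. Sfmbt2, a Polycomb-associated gene, had the largest rise, 1.70 on A_55_P1956647 (adjusted p = 0.000256). Rasgrf1, a guanine nucleotide exchange factor, gave 0.77 (adjusted p = 0.000528), and Ndn, which encodes necdin, gave 0.64 (adjusted p = 0.00286). The Rasgrf1 probe was well above background on 4 EED cKO and 2 control arrays. It thus passed the filter through EED cKO arrays only, and the count of 5 called higher, which includes it, cannot stand as support. Slc38a4, an amino acid transporter, was the 1 that fell, by 0.79 on the log2 scale (adjusted p = 0.00201). Of 18 tested maternally expressed genes 1 was called higher and 4 lower, with a median of -0.12. The 1 was Mirg, a noncoding RNA of the Dlk1 and Meg3 domain, at 0.53 (adjusted p = 0.0018). Those with the largest falls were Osbpl5, an oxysterol-binding protein gene (-0.71, adjusted p = 0.0277), Ascl2, a basic helix-loop-helix factor (-0.39, adjusted p = 0.00673), and Gnas (-0.36, adjusted p = 0.0278), whose second tested probe gave 0.15 (adjusted p = 0.304). The genotypes overlapped on the called probes of Osbpl5, Ascl2 and Gnas. On the Ascl2 probe the reference channel itself differed between genotypes by -0.43 (limma, unadjusted p = 0.00058, adjusted p = 0.0951).

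Receptors, binding proteins and regulators of IGF and insulin moved in both directions. Of 21 tested genes 6 were called higher and 4 lower, with a median log2 difference of 0.13, where 11.8% and 9.93% of all genes were called in a fit of 1 probe a gene. The rises were led by Igfbp6, an IGF-binding protein with preference for IGF2, at 0.95 (adjusted p = 0.000138), Grb14, a relative of Grb10, at 0.76 (adjusted p = 0.00106), and the insulin receptor-related receptor gene Insrr at 0.62 (adjusted p = 0.00145). The Insrr probe was well above background on 4 EED cKO arrays and 1 control array. It thus passed the filter through EED cKO arrays only, and the count of 6 called higher, which includes it, cannot stand as support. The falls were led by Igf2bp3, an RNA-binding protein named for Igf2 mRNA, at -0.76 (adjusted p = 0.000589), the protease gene Htra1 at -0.56 (adjusted p = 0.00511) and the adaptor gene Grb2 at -0.39 (adjusted p = 0.0128). A second tested Grb2 probe gave -0.17 (limma, adjusted p = 0.130), and the genotypes overlapped on both Grb2 probes. Igf1r and Igf2r, the receptors that bind IGF2, gave -0.10 and -0.20 (adjusted p = 0.677 and 0.205). Of 7 tested relatives of the members, among them Plag1, Plagl2 and Dlk2, limma called 0 on their brightest tested probe, with 1 higher and 1 lower at an unadjusted p below 0.05.

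**Figure D5:**
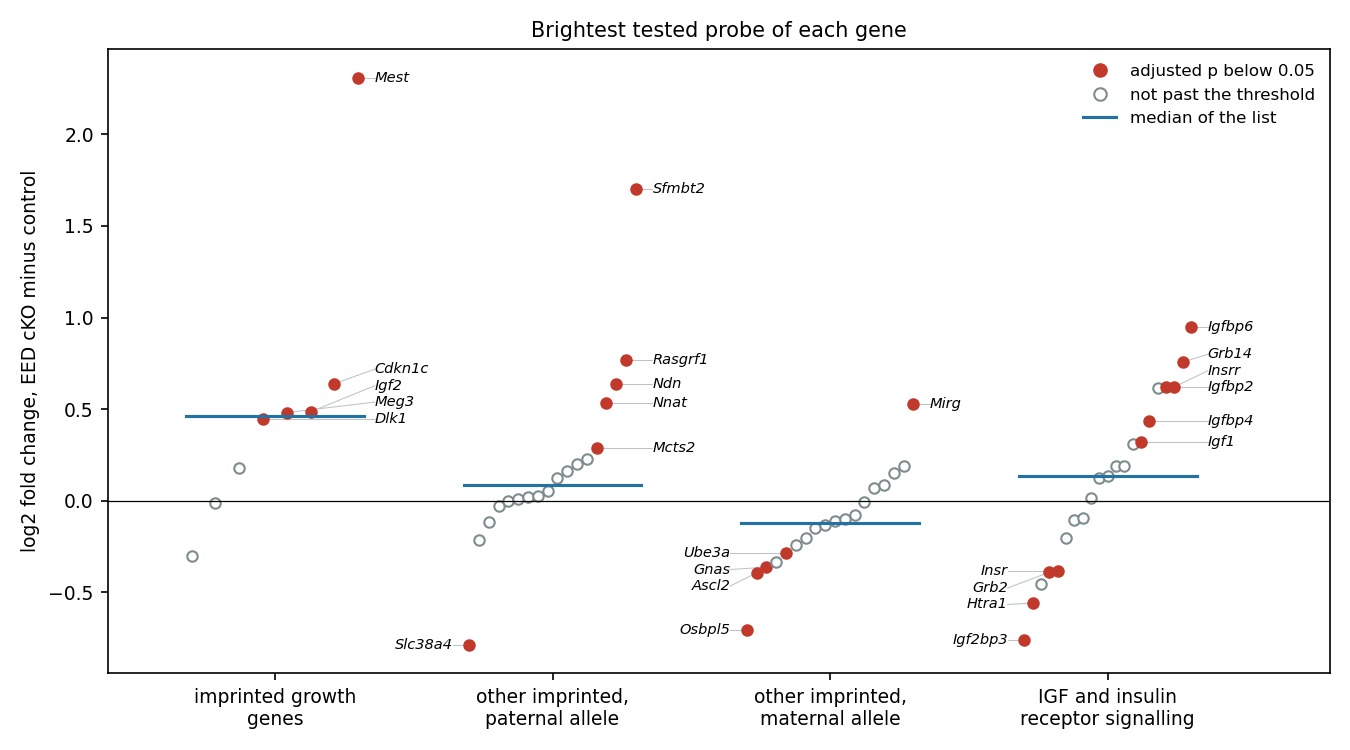
Log2 fold change (EED cKO minus control, vertical axis) of the brightest tested probe of each gene in 4 lists, with called genes filled and named and a line at each list's median. The medians are 0.46 for the imprinted growth genes, 0.09 and -0.12 for other imprinted genes listed as expressed from the paternal and the maternal allele, and 0.13 for IGF and insulin receptor signalling.

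The genes whose values ran most like the 2 members with the largest differences were taken by Pearson correlation of the log2 ratio over the 8 arrays. For Mest these were Crnn (r = 0.991), Tdrd7 (r = 0.991) and Sp8 (r = 0.991), with log2 differences of 1.42, 1.18 and 3.04. For Cdkn1c they were Kdelr3 (r = 0.997), Defa3 (r = 0.994) and Rnf128 (r = 0.988), with 0.77, 0.72 and 0.77. The 8 points fall into the genotypes and share the reference RNA, so these coefficients describe a shared difference between genotypes.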

How the data were processed

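RNA of 4 EED cKO and 4 control epidermis samples was measured on 2-colour arrays against Universal Mouse Reference RNA. The authors deposited the output of Agilent Feature Extraction 12.0.1.1, which holds spot and local background intensity per channel, not normalized, and a log10 ratio for which the software subtracted background and balanced the dyes itself. A deposited table of log2 values holds uncentred ratios of sample over reference from the same processed signals (largest difference 7.33e-06 over 55249 probes with 1 spot). The median spot and background signals were used. The normexp method (offset 50) removed background, control spots and outliers were left out, arrays were normalized by loess, ratios were turned to sample over reference and the spots of a probe averaged. Fold changes are on this offset scale, which understates the change of dim probes. Of 29796 probes with a RefSeq accession 28026 were named through the GRCm38.p6 table. The array was annotated on another build, so no probe coordinates are given. The 30722 tested probes were fitted by lmFit and eBayes of limma 3.58.1 under R 4.3.3, with terms for genotype and dye and Benjamini-Hochberg adjustment. Missing values of single probes (32 in all, in 31 probes and in no member probe) were left out of the fit. No spot was saturated. The number of arrays limits the precision.

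All 8 arrays lay on 1 slide with 1 scan, with EED cKO in 1 row of it and control in the other, so row and genotype cannot be told apart. Same-numbered replicates deviated together, and they also shared the dye of the sample. Correlations of deviations from the group mean were 0.49, 0.67, 0.32 and 0.36 for replicates 1 to 4. Within Cy3 and Cy5 they were 0.13 and 0.44. The replicate number was therefore fitted as a block in 1 alternative. The main fit and the permutation tests did not pair the samples. Probes of 1 gene were compared by an exact permutation test of their difference within arrays, two-sided. The genes named in the text are all members, Eed, from each list the 3 called genes with the largest rise and the 3 with the largest fall, the 3 genes most correlated with each of the 2 members with the largest differences, and the marker genes. Beyond this rule, the IGF2 receptors, the relatives of the members and the neighbours of the called members are named, a choice made with their values known. The members and lists were chosen with earlier results of these data known. Alternatives were no background correction, median centring, the log ratio of the scanner software (Feature Extraction), the table as deposited, the sample channel alone, no filter or a filter on all 8 arrays, 1 probe a gene, no dye term, the replicate block, the methods' t-test, leaving out each array, and leaving out control replicates 2 and 3. The fit was tested on simulated data.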

Additional observations from a re-analysis of the deposited data

How the results depend on the processing

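Of the main counts, 8 member probes were higher, 0 lower, 2 at least 2-fold, and 13 probes of other imprinted genes were called. Median centring gave 4 higher, 1 at least 2-fold and 8 of other imprinted genes. The scanner software's log ratio and the deposited table each gave 4 at least 2-fold. With a probe well above background on all 8 arrays, 1 was at least 2-fold and 7 of other imprinted genes were called. With 1 probe a gene, 5 were higher and 1 at least 2-fold. No dye term left 8 of other imprinted genes, and the methods' t-test 5 higher and 7 of other imprinted genes. Without control replicates 2 and 3, 4 were higher. Leaving out 1 array in turn gave 6 to 8 higher, 2 at least 2-fold, 0 lower and 9 to 13 of other imprinted genes. The replicate block called 1 member lower, Plagl1 A_55_P1961968 (adjusted p = 0.0464), and changed no other member's call. At the methods' own threshold, an unadjusted p below 0.05 and at least 2-fold, their t-test called 2 member probes, against 320 of all 30722 tested probes (1.04%). Over all tested probes, 3341 higher and 2781 lower became 638 and 355 with that test after adjustment, 1600 and 1226 with no dye term, 2172 and 2458 with the scanner software's log ratio, 1959 and 1168 without control replicates 2 and 3, and 1908 to 3125 and 1372 to 3004 with 1 array left out, and 323 at least 2-fold became 874 with the scanner software's log ratio. With 0.0286 as its smallest p, the test of probe pairs could not pass the threshold for a single pair, so its count of 0 says nothing about stability. Signs turned for 2 differences near 0: Plagl1 A_55_P2153251 was -0.0071 with the scanner software's log ratio, -0.0071 with the deposited table and between -0.0077 and 0.0908 with 1 array left out, and Grb10 lay between -0.0673 and 0.0316 with 1 array left out (0.0301 without EED cKO replicate 1, 0.0252 without EED cKO replicate 2, 0.0136 without control replicate 1, 0.0316 without control replicate 4). The cause of these shifts was not tested. Signals near background limit Mest in control, Meg3, Grb10, Peg10 and the second Peg3 probe.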
